A study of Homo sapiens with 16 samples.

Results

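The response to hypoxia was measured in A498 cells depleted of both DGAT enzymes, by setting 4 arrays of doxycycline-treated cells in hypoxia against 4 arrays of doxycycline-treated cells in normoxia. These 8 arrays are 8 of the 16 in the series, and their groups were read from the array titles. A498 is an established line of human clear cell renal carcinoma (ccRCC). The cells carried hairpins against DGAT1 and DGAT2 on a pair of lentiviral vectors, selected with puromycin and G418, that doxycycline switches on. Every group carried the hairpins and was kept in low serum: cells of the groups compared here received doxycycline for 5 days and then spent 2 days in normoxia or at 0.5% oxygen, and the other 8 arrays received vehicle and the same oxygen conditions. Doxycycline given to cells without the hairpins was not analysed here. Genes were taken from probe sets with exactly 1 gene symbol, with the brightest probe set for each gene, which left 22411 genes. Arrays within a group are labelled as biological replicates, with nothing said of separate cultures, so p-values measure the spread between these samples, which may be technical.

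DGAT1 and DGAT2 add the last fatty acid to diacylglycerol and so make triglyceride, the store held in lipid droplets. Cells short of oxygen stabilise the α subunits of hypoxia-inducible factors (HIFs), which bind a short core sequence near genes for glucose uptake, angiogenesis and matrix remodelling. In clear cell renal carcinoma loss of VHL, the ubiquitin ligase subunit that marks HIF-α for degradation, leaves HIF active in normoxia too. Hypoxia also acts through enzymes that use oxygen directly and through the integrated stress response, in which phosphorylation of a translation initiation factor favours synthesis of the transcription factor ATF4.

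Both targets were depleted in the arrays compared. In normoxia 30.7% of the DGAT1 signal and 28.1% of the DGAT2 signal remained relative to vehicle, and in hypoxia 40.2% and 37.9% (each p = 0.0286 by a two-sided exact permutation test, the smallest that 4 against 4 arrays allow). The vehicle reference was itself lower in hypoxia, by 0.32 for DGAT1 (adjusted p = 0.0438, limma) and by 0.52 for DGAT2 (0.00588). Within the doxycycline groups DGAT1 read 5.04, 5.13, 5.20 and 5.09 on the log2 scale in normoxia and 5.28, 5.10, 5.19 and 5.18 in hypoxia, and DGAT2 read 5.13, 5.44, 5.09 and 5.18 against 5.06, 5.22, 5.14 and 5.08. The oxygen groups overlapped for both genes: the hypoxia minus normoxia difference was 0.07 ± 0.09 (SE) for DGAT1 (95% confidence interval -0.12 to 0.26) and -0.09 ± 0.10 for DGAT2 (-0.29 to 0.12). Of 9 measured defining markers of kidney tubule and clear cell carcinoma 8 were above the median level of all genes (4.89) on all 8 arrays, 1 of the 9 passed the test (CDH6, below), and the summed level of the list was 16.98 to 17.03 in normoxia and 16.97 to 17.05 in hypoxia. A longer list of such genes had 3 of 24 measured members lower and 0 higher (LHX1, a nephron transcription factor, by 0.53, SLC12A3, a salt cotransporter of the distal tubule, by 0.26, and CDH6), and 14 of the 24 had a mean above the median level in either group. Of the defining markers of other cells, 6 leukocyte, 5 endothelial and 6 fibroblast genes measured, none was above that level on all arrays or passed the test. On the longer lists 1 of 20 leukocyte genes passed, ITGAM, at 4.73 to 4.86 in normoxia and 4.48 to 4.64 in hypoxia (adjusted p = 0.00861, limma), below the median level on every array, and 0 of 15 endothelial and 0 of 11 fibroblast and pericyte genes.

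With doxycycline, hypoxia raised 228 of 22411 genes (1.02% of those tested) and lowered 665 (2.97%), at an adjusted p under 0.05 (limma, Benjamini-Hochberg, n = 4 per group). The changes were small. Over all genes the 4 hypoxia arrays lay wholly above the 4 normoxia arrays for 3.76% and wholly below for 9.15%. A size of at least 1.5-fold was reached by 43 of the higher and 107 of the lower genes, and the median difference over all genes was -0.01. Decreases made up 74.5% of the calls, and 61.0% with another quantile normalization. Among the 11499 genes whose level exceeded the median of all genes in at least 1 group, 1.89% rose and 5.37% fell, which is the closer comparison for the gene lists below, since their members are mostly well expressed. Within groups, 63.3% of the variance lay along 1 axis, with vehicle hypoxia replicate 4 at 45.8 and doxycycline hypoxia replicate 4 at -31.5. Without that pair of arrays 733 genes passed as higher and 1554 as lower. Leaving out 1 array moved the counts by over 1.5 times in these cases: 131 higher and 333 lower without doxycycline hypoxia replicate 1, 113 and 313 without replicate 2, 98 and 345 without replicate 3, 107 and 390 without doxycycline normoxia replicate 1, 118 and 308 without replicate 2, 109 and 434 without replicate 4, and 359 and 1036 without vehicle hypoxia replicate 4. Precision is limited by having 4 arrays in a group.

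**Figure D1:**
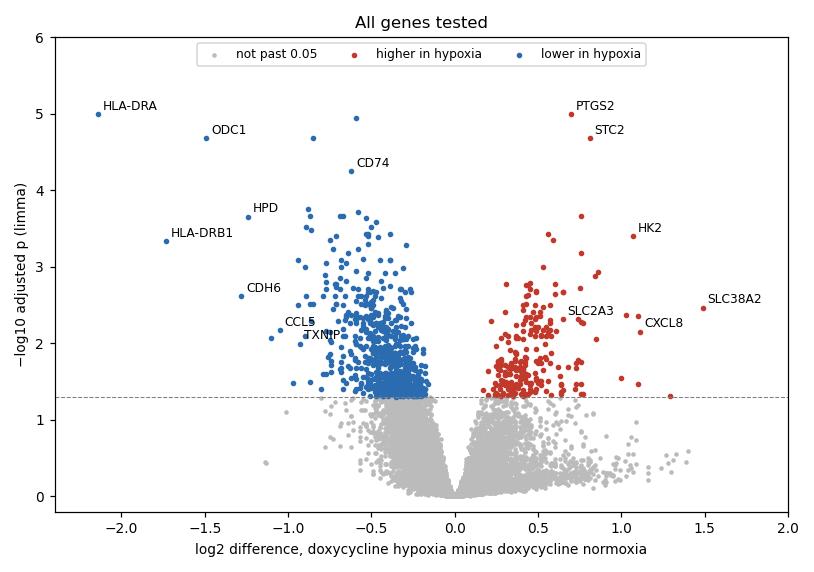
Each point is 1 of 22411 genes, with the log2 difference between doxycycline hypoxia and doxycycline normoxia on the horizontal axis and -log10 of the limma adjusted p on the vertical axis. The dashed line marks an adjusted p of 0.05, and the 665 lower genes (blue) outnumber the 228 higher genes (red), with HLA-DRA (-2.14) and SLC38A2 (1.49) farthest out among the labelled genes.

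Increases were led by SLC38A2, which encodes a sodium-coupled transporter of small neutral amino acids and is induced when amino acids are scarce. On the normoxia arrays it read 12.81, 12.40, 13.37 and 12.99, and on the hypoxia arrays 14.84, 14.42, 14.48 and 13.77. Hypoxia replicate 4 was the lowest of its group. The rise was 2.80-fold (log2 1.49 ± 0.24, adjusted p = 0.00343, limma). CXCL8, the neutrophil chemokine interleukin-8, read 8.09, 7.90, 8.18 and 7.93 in normoxia and 9.18, 9.47, 9.03 and 8.87 in hypoxia, a 2.16-fold rise (1.11 ± 0.21, adjusted p = 0.00703). CXCR4, the receptor of the chemokine CXCL12 and a HIF target, rose from 8.05, 8.15, 7.97 and 8.03 to 8.76, 9.12, 9.15 and 9.56 (2.15-fold, adjusted p = 0.00441). Groups do not overlap for any of the largest increases, since the rule that chose them required it.

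HK2, the hexokinase isoform that commits glucose to glycolysis in many tumours, read 7.76, 7.81, 7.94 and 7.72 in normoxia and 8.77, 8.87, 8.89 and 8.98 in hypoxia. The spread within each group was far smaller than the gap, and HK2 rose 2.10-fold (1.07 ± 0.13, adjusted p = 0.000401). RYBP, a subunit of Polycomb repressive complex 1, rose 2.04-fold, and the zinc finger gene ZNF114 rose 2.00-fold. The stanniocalcins, secreted glycoprotein hormones, rose together: STC1 by 1.82-fold (12.42, 12.31, 12.66 and 12.40 to 13.18, 13.31, 13.42 and 13.32) and STC2 by 1.75-fold (8.06, 8.15, 8.11 and 7.86 to 8.88, 8.82, 8.85 and 8.86). The hypoxia arrays of STC2 lay within 0.06 of each other. The remaining largest increases were CCN3, a matricellular protein (1.81-fold), GEM, a small GTPase (1.79-fold), CTH, the enzyme that makes cysteine from cystathionine (1.7-fold), SLC7A6, a cationic and neutral amino acid exchanger, SEMA5A, a semaphorin, PAG1, a membrane adaptor that recruits the kinase CSK, and TCP11L2, each 1.69-fold. Of these 15 calls 11 held in each of 16 fits made without 1 array, while SEMA5A (hypoxia replicate 4 at 7.39 against 7.91 to 8.11 on the others, adjusted p = 0.0452) kept its call in 3.

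**Figure D2:**
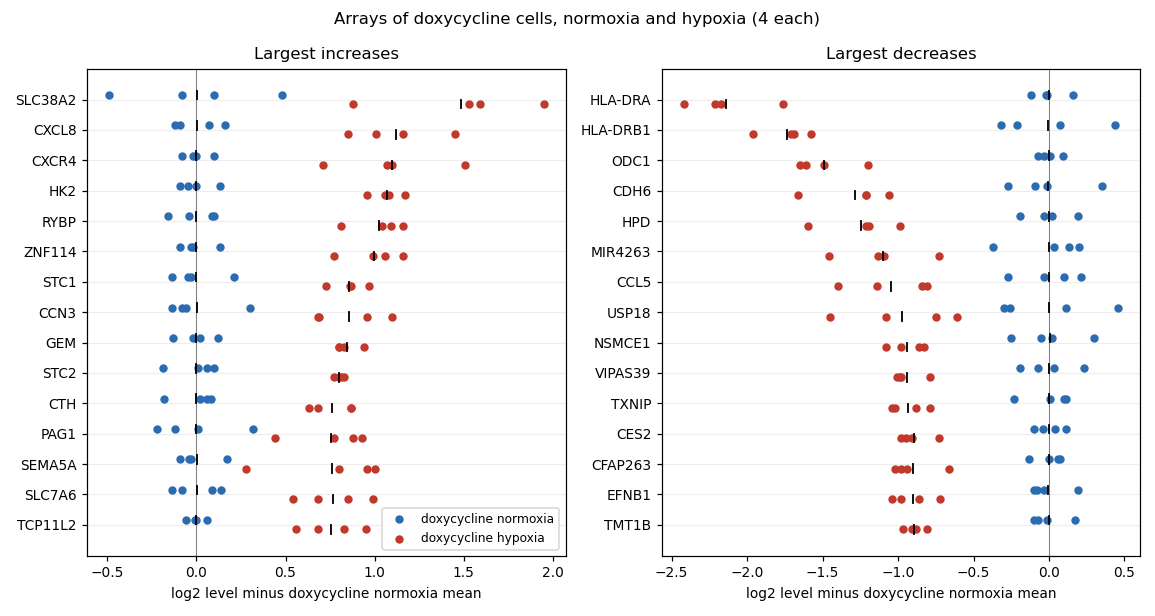
Each point is 1 array, plotted as its log2 level minus the mean of the 4 doxycycline normoxia arrays, for the 15 largest increases (left) and 15 largest decreases (right); blue is normoxia, red is hypoxia and black ticks are group means. By the rule that chose these genes the groups do not overlap, and the gap is widest for HLA-DRA, whose hypoxia arrays read 5.43 to 6.09 against 7.73 to 8.01.

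The steepest decreases were in genes of MHC class II, the molecules that present peptides to CD4 T cells and that some epithelial tumour cells also express. HLA-DRA, the α chain of HLA-DR, read 7.84, 8.01, 7.83 and 7.73 in normoxia and 6.09, 5.43, 5.68 and 5.64 in hypoxia. The highest hypoxia array was 1.64 log2 units below the lowest normoxia array, and the fall was 4.42-fold (log2 -2.14 ± 0.16, adjusted p = 1.02e-05, limma). HLA-DRB1, a β chain, read 9.33, 9.70, 9.05 and 8.94 against 7.68, 7.30, 7.57 and 7.55 (3.32-fold lower, adjusted p = 0.000466). The other members of the family were looked up after these values were seen: of the 17 others measured, 7 fell and 0 rose, with a median of -0.14 against -0.01 over all genes. CD74, the invariant chain, fell by 0.62 (adjusted p = 5.63e-05), HLA-DMA, a peptide-loading subunit, by 0.79 (0.00244), and CIITA, the transactivator on which class II transcription depends, by 0.27 (0.00196, limma). HLA-DRB4 fell by 0.77 and HLA-DRB5 by 0.36. CIITA was below the median level of all genes on all 8 arrays (4.22 to 4.54), as were the remaining called members, HLA-DPA1 (3.50 to 3.78) and HLA-DQB1 (3.73 to 4.04), whose calls were lost in 11 and 6 of 16 fits without 1 array. Probes of the DRB paralogs may read each other's transcripts, so these values are not independent. HLA-DMB was at 0.02 and HLA-DQA1 at 0.01, and neither passed. In vehicle cells 6 of these 17 fell.

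ODC1, ornithine decarboxylase, the enzyme that starts polyamine synthesis, read 11.78, 11.86, 11.74 and 11.70 in normoxia and 10.16, 10.12, 10.28 and 10.57 in hypoxia. The gap between the lowest normoxia and the highest hypoxia array was 1.13 log2 units, and ODC1 fell 2.81-fold (-1.49 ± 0.13, adjusted p = 2.09e-05, limma). Only ODC1 and HLA-DRA passed a test against a change of 1.5-fold, at which 0 increases and 2 decreases passed. Of 17 polyamine genes looked up after seeing this value, 1 other fell (SAT1, the acetylase that starts polyamine breakdown, by 0.42) and 1 rose. That one was AMD1, which makes the aminopropyl donor. It read 10.63, 10.27, 11.40 and 10.84 in normoxia and 12.32, 11.97, 11.90 and 11.34 in hypoxia (1.10 ± 0.27, adjusted p = 0.0344). The groups overlapped for AMD1, and its call held in 9 of 16 fits without 1 array.

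CDH6, a cadherin of the renal proximal tubule, read 11.61, 11.43, 12.05 and 11.69 in normoxia and 10.49, 10.64, 10.49 and 10.04 in hypoxia (2.43-fold lower, adjusted p = 0.00244, limma). HPD, an oxygen-using enzyme of tyrosine breakdown, fell 2.37-fold from 7.08, 7.30, 6.92 and 7.13 to 5.51, 5.92, 5.90 and 6.12 (adjusted p = 0.000223). CCL5, a chemokine that attracts T cells and monocytes, read 9.25, 9.49, 9.01 and 9.38 against 7.88, 8.44, 8.14 and 8.47, 2.07-fold lower (adjusted p = 0.00674). That the groups were apart on every array was required by the rule that chose the largest decreases. TXNIP, an arrestin family protein that restrains glucose uptake, fell 1.91-fold (10.61, 10.60, 10.51 and 10.27 to 9.48, 9.71, 9.46 and 9.62, adjusted p = 0.0101). It was the only 1 of 9 measured α-arrestins and glucose-sensing genes of that list to pass. The other largest decreases were USP18, which removes ISG15 from proteins (1.96-fold), NSMCE1, a subunit of the SMC5/6 complex, and VIPAS39, an endosomal sorting factor (each 1.92-fold), the carboxylesterase CES2, the cilia-associated CFAP263, the ephrin EFNB1 and the methyltransferase TMT1B (each 1.86-fold). Of the 15 decreases only USP18 lost its call when single arrays were left out, in 5 of the 16 fits. USP18 also lost it with the methods' t-test.

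A probe set among them carries the name of a precursor microRNA gene, MIR4263, and its level fell 2.14-fold (7.23, 7.33, 7.40 and 6.83 to 6.07, 6.47, 5.74 and 6.11, adjusted p = 0.00861, limma). The gene lies within BABAM2 in the RefSeq table, and a probe set on total RNA does not tell the precursor from other transcripts of the locus. The mature sequence (GRCh38.p14, chr2:27996422-27996439, plus strand) is printed because the gene is among the 15 largest decreases, with the seed in capitals.
hsa-miR-4263: aUUCUAAGugccuuggcc

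Of 56 measured genes that HIF is known to induce outside glycolysis, 12 rose (21.4%, against 1.02% of all genes) and 1 fell (1.79%), with a median of 0.19 against -0.01 over all genes. Besides CXCR4, STC1 and STC2, these were LOX, which crosslinks collagen (1.68-fold), SLC2A3, the glucose transporter GLUT3 (1.57-fold), HILPDA, a lipid droplet protein that inhibits lipolysis (1.48-fold), CITED2, which competes with HIF for its coactivator (1.42-fold), NDRG1 (1.38-fold), VEGFA, the angiogenic growth factor (1.35-fold), PLIN2, the lipid droplet coat protein (1.33-fold), VLDLR, a lipoprotein receptor (1.28-fold), and ZNF395 (1.23-fold). SLC2A3, NDRG1 and ZNF395 were added after their values were seen. VEGFA read 9.78, 9.82, 9.81 and 9.63 in normoxia and 10.20, 10.15, 10.21 and 10.19 in hypoxia (adjusted p = 0.00244, limma). PLIN2 was near the threshold, at 12.14, 12.14, 12.04 and 12.01 against 12.34, 12.42, 12.46 and 12.74 (adjusted p = 0.0493), and lost its call in 14 of 16 fits without 1 array. Its groups did not overlap. PPP1R3C, which targets a phosphatase to glycogen, was the member that fell (1.35-fold). The list's mean level was 9.22 to 9.32 on the normoxia arrays and 9.43 to 9.49 on the hypoxia arrays, and 8 to 13 members passed as higher when single arrays were left out.

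Several classic targets did not pass. ADM read 8.06, 8.07, 8.04 and 8.05 in normoxia and 8.16, 8.31, 8.39 and 8.67 in hypoxia (0.33 ± 0.12, adjusted p = 0.166). The groups were apart, with a spread in hypoxia that normoxia did not have. ANGPTL4 was likewise higher on all hypoxia arrays, from 7.66 to 8.36 against 6.81 to 6.94 (1.04 ± 0.41, adjusted p = 0.204). The shared spread of that fit took in the vehicle hypoxia arrays, where replicate 3 read 8.35 and the others 5.72 to 6.81. ANGPTL4 passed without that array (adjusted p = 0.012), with only the 8 arrays compared (0.00814), with array weights (0.0202) and with the methods' t-test (0.0346). The glucose transporter SLC2A1 was at 0.33 ± 0.10 (adjusted p = 0.106, limma) but passed without vehicle hypoxia replicate 4 and in 3 other alternatives. BNIP3, a mitophagy receptor, was at -0.20 ± 0.08 and the HIF hydroxylase EGLN3 at 0.19 ± 0.10. These 5 were chosen after their values were seen. EPAS1, which encodes HIF-2α, was at 0.07 ± 0.11. CITED2 was the only member of 15 measured oxygen-sensing genes to pass.

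Promoter sequences from RefSeq (build GRCh38.p14) were searched for the HIF core, ACGTG or GCGTG, on both strands of the 250 bases before the start. A promoter was found for 15374 of the genes tested, and 49.9% of them hold the core. It was present in 53.3% of the 180 promoters of higher genes, in 55.9% of the 528 of lower genes and in 74.4% of the 43 of the HIF list. The GC-rich sequence GGGCGG, also searched, was in 54.8% of all promoters and in 76.7% of those of the HIF list. It was in 70.6% of the promoters of higher genes and 63.1% of those of lower genes, so a larger share is not particular to the HIF core. All 6 higher members of the HIF list with a promoter in the table hold the HIF core. So do PPP1R3C, the member that fell, with 4 matches, and BNIP3, which did not pass, with 6. Sequences are shown for 4 of the 6 higher members, with the core in capitals, since they show how its number and place vary among genes that rose. LOX has 4 matches, the nearest at -42 from the start. PLIN2 has 4, of which those at -69 and -68 are 1 CACGTG palindrome read on both strands, a sequence that basic helix-loop-helix factors other than HIF also bind. STC2 has 3, all beyond -220, and CXCR4 has 1, at -39.
LOX (chr5:122078260-122078509, minus strand): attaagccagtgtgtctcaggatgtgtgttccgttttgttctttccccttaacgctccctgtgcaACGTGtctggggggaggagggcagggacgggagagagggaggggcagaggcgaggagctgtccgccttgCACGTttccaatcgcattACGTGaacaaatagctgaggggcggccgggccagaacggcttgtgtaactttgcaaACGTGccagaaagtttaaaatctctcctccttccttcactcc
PLIN2 (chr9:19127493-19127742, minus strand): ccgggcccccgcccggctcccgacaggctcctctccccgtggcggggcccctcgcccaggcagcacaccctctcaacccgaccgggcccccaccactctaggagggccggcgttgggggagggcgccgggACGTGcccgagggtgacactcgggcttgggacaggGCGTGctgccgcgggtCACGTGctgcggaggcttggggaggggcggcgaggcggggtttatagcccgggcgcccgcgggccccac
STC2 (chr5:173328415-173328664, minus strand): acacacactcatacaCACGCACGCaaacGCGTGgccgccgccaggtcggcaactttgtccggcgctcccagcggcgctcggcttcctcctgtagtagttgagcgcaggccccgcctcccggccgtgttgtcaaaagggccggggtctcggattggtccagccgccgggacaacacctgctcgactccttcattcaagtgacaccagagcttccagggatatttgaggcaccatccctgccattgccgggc
CXCR4 (chr2:136118150-136118399, minus strand): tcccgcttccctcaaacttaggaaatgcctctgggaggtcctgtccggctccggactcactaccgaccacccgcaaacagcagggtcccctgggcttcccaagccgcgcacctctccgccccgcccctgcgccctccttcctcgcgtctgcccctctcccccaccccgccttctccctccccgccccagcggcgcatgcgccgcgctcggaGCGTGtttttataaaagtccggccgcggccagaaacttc
A match is a description of the letters and not a bound site.

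Genes of the ATF4 pathway and the integrated stress response had 9 of 40 measured members higher and 1 lower, with a median of 0.20. The list's mean level was 10.67 to 10.80 in normoxia and 10.94 to 11.03 in hypoxia, without overlap. SLC38A2, CTH, STC2 and VLDLR are described above. ATF4 itself rose 1.28-fold (12.77, 12.87, 12.73 and 12.64 to 13.10, 13.04, 13.12 and 13.16, adjusted p = 0.0407, limma), a call that held in 4 of 16 fits without 1 array. DDIT3, the transcription factor CHOP, read 7.27, 7.51, 7.24 and 7.16 against 7.76, 7.82, 7.74 and 7.71 (1.38-fold, adjusted p = 0.00677). ATF3, a stress-induced factor downstream of ATF4, rose 1.40-fold (0.00799), and PPP1R15A, the phosphatase subunit GADD34 that reverses the translation block, rose 1.61-fold (0.0206). SLC7A1, an importer of arginine and lysine, rose 1.43-fold (0.0180). Other members did not pass: the asparagine synthetase gene ASNS was at -0.20 ± 0.08 (adjusted p = 0.212), CHAC1, a glutathione-degrading enzyme, at 0.70 ± 0.21 (0.0896) and TRIB3, a pseudokinase, at 0.40 ± 0.14 (0.140). WARS1, the tryptophanyl-tRNA synthetase, fell 1.28-fold. ATF4, PPP1R15A, SLC7A1, ASNS, CHAC1 and TRIB3 were named after their values were seen. The number of higher members dropped to 5 without doxycycline normoxia replicate 1 or replicate 4, and was 14 in a fit of only these 8 arrays. With the methods' t-test SLC38A2, ATF3, PPP1R15A and SLC7A1 lost their calls, and TRIB3 passed.

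A composite element that C/EBP and ATF proteins bind, searched as TGATGNAAN on both strands, is in 2.32% of all promoters and in 5 of 33 on this list. ATF3 holds the only match among the 9 higher members with a promoter, at -191, shown in capitals.
ATF3 (chr1:212565157-212565406, plus strand): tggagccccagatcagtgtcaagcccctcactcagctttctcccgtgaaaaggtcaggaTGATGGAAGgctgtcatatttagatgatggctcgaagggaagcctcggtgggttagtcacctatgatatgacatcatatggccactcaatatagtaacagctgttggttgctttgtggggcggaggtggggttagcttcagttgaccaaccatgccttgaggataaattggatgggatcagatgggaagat

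**Figure D3:**
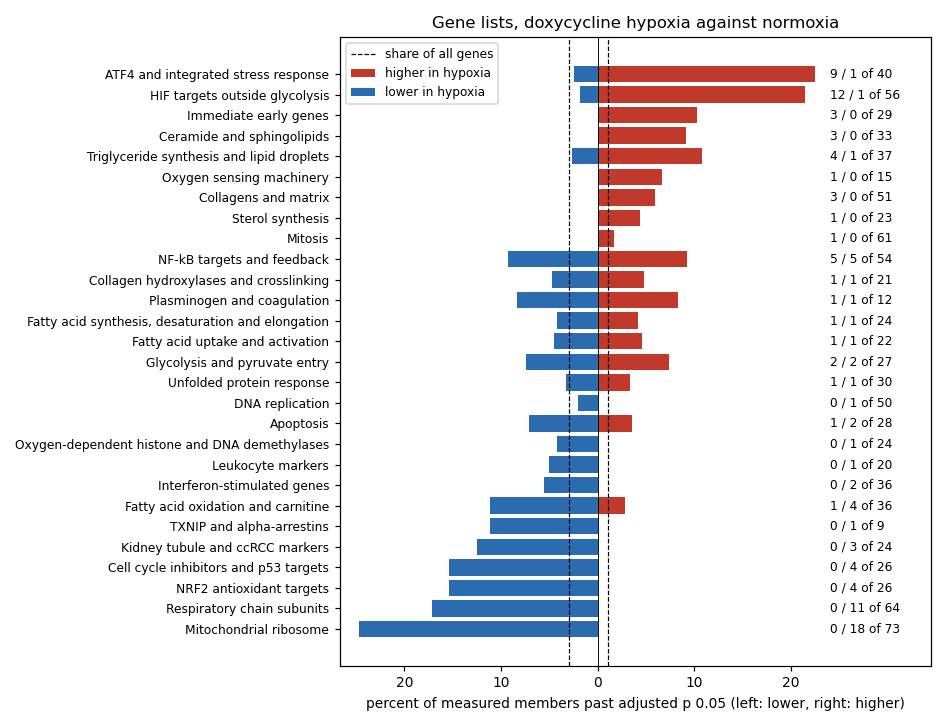
Bars give the percent of each list's measured members past an adjusted p of 0.05, higher in hypoxia to the right (red) and lower to the left (blue), with counts at the right edge (higher / lower of measured); lists with no call are left out. Dashed lines mark the shares over all 22411 genes (1.02% higher, 2.97% lower), and the ATF4 and HIF lists extend farthest to the right and the mitochondrial ribosome and respiratory chain lists farthest to the left.

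Among genes for mitochondrial protein synthesis and respiration, every call was a decrease. Of 73 measured genes of the mitochondrial ribosome, which translates the few proteins encoded in mitochondrial DNA, 18 fell and 0 rose, with a median of -0.22. The list's mean level was 8.44, 8.47, 8.44 and 8.42 in normoxia and 8.17, 8.23, 8.20 and 8.28 in hypoxia, and the groups did not overlap. MRPL40 fell 1.59-fold (8.26, 8.44, 8.15 and 8.11 to 7.45, 7.55, 7.54 and 7.76, adjusted p = 0.00313, limma), MRPL21 1.51-fold, MRPS17 1.42-fold and MRPS5 1.24-fold. Single changes were near the threshold, and the count was 3 without doxycycline hypoxia replicate 1, 2 or 3 or doxycycline normoxia replicate 2, 4 without doxycycline normoxia replicate 1, 5 without replicate 4 and 7 without replicate 3 of that group. It was 9 without vehicle hypoxia replicate 1 or vehicle normoxia replicate 4, 11 without vehicle normoxia replicate 3, 5 with all probe sets tested, 8 after another quantile normalization and 7 with the methods' t-test.

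Of 64 nuclear-encoded subunits of the respiratory chain, 11 fell and 0 rose (median -0.22). Of the 11, 8 were subunits of complex I, which takes electrons from NADH. How many of the 64 belong to complex I was not counted, so 8 of 11 does not show a concentration there. NDUFA7 read 10.91, 11.20, 11.03 and 11.02 in normoxia and 10.20, 10.30, 10.21 and 10.41 in hypoxia (1.7-fold lower, adjusted p = 0.00158, limma), NDUFB5 fell 1.51-fold and NDUFC1 1.42-fold, each with groups apart. ATP5PD, of the ATP synthase stalk, fell 1.28-fold. The count was 6 without doxycycline hypoxia replicate 1, 2 or 3 or doxycycline normoxia replicate 1 or 2, and 21 without vehicle hypoxia replicate 4. Cytosolic ribosomal protein genes had 0 calls of 48, with a median of -0.15 (13 of them at an unadjusted p under 0.05).

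Fatty acid oxidation had 4 of 36 members lower and 1 higher. CPT2, which releases acyl groups from carnitine inside mitochondria, read 8.08, 8.12, 7.94 and 7.69 against 7.13, 7.14, 7.23 and 7.48 (1.64-fold lower, adjusted p = 0.00308, limma), and CROT, a peroxisomal carnitine acyltransferase, read 9.12, 9.06, 9.38 and 9.26 against 8.49, 8.52, 8.52 and 8.44 (1.64-fold lower, 0.00308). Both were apart on every array. ETFB, of the flavoprotein that passes electrons on, fell 1.38-fold and HADH, a dehydrogenase of the β-oxidation spiral, 1.35-fold. PPARA, the receptor that drives this pathway in liver, rose 1.20-fold. The count of lower members was 2 without doxycycline hypoxia replicate 1 or 2 or doxycycline normoxia replicate 2. A separate list of fatty acid uptake and activation had 1 of 22 measured members higher and 1 lower, with a median of -0.01. Its lower member was ACSL5, an acyl-CoA synthetase, which fell 1.68-fold (7.41, 7.58, 7.57 and 7.42 to 6.68, 6.63, 6.77 and 6.90, adjusted p = 0.000448, limma).

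Triglyceride and lipid droplet genes were at a median of 0.01, with 4 of 37 higher and 1 lower. HILPDA read 6.80, 6.84, 6.51 and 6.59 in normoxia and 7.17, 7.14, 7.29 and 7.40 in hypoxia (adjusted p = 0.00490, limma), and all hypoxia arrays were above all normoxia arrays. SOAT1, which esterifies cholesterol, rose 1.37-fold, PLIN2 1.33-fold and AGPAT4, an acyltransferase of phosphatidic acid synthesis, 1.25-fold, while BSCL2, the seipin gene of droplet assembly, fell 1.25-fold. The 4 increases dropped to 1 without doxycycline hypoxia replicate 1, 2 or 3 or doxycycline normoxia replicate 1, 2 or 4, and to 2 without doxycycline hypoxia replicate 4 or with the arrays centred on their medians. SCD, the oxygen-using desaturase that makes oleate, read 17.10, 17.05, 17.12 and 16.96 against 17.00, 16.94, 17.04 and 17.05. The groups overlapped, and the difference was -0.05 ± 0.07 (95% confidence interval -0.20 to 0.11). Of 24 measured genes of fatty acid synthesis, desaturation and elongation 1 rose and 1 fell. ELOVL2, an elongase of polyunsaturated fatty acids, rose 1.37-fold. ELOVL3, another elongase, fell by 0.20 (adjusted p = 0.0451, limma) at a level below the median of all genes. The call of ELOVL3 was lost in 10 of 16 fits without 1 array.

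In ceramide synthesis 3 of 33 members rose and 0 fell. SPTLC2, the catalytic subunit of serine palmitoyltransferase, which starts the pathway from palmitoyl-CoA, read 10.42, 10.32, 10.41 and 10.49 in normoxia and 10.97, 10.95, 10.98 and 10.77 in hypoxia (1.42-fold, adjusted p = 0.00440, limma). KDSR, the reductase of the next step, rose 1.40-fold (0.00618), and UGCG, which glucosylates ceramide, 1.33-fold (0.0464). Groups were apart for all of them. The call of UGCG held in 5 of 16 fits without 1 array, and those of SPTLC2 and KDSR in 16. With the methods' t-test KDSR and UGCG lost their calls and SPTLC2 kept its own.

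Glycolysis and pyruvate entry had 2 of 27 higher and 2 lower (median -0.05). HK2 and ENO2, an enolase (1.23-fold), rose. ALDOC, an aldolase, fell 1.60-fold (8.46, 8.67, 8.61 and 8.52 to 7.70, 7.83, 7.82 and 8.21, adjusted p = 0.0174, limma), and PDHA1, of pyruvate dehydrogenase, 1.20-fold. The calls of ENO2, ALDOC and PDHA1 were lost in 5, 4 and 12 of 16 fits without 1 array. The count of decreases was 0 without doxycycline hypoxia replicate 1, 2 or 3 or doxycycline normoxia replicate 2 and 1 without any of 7 other arrays, and that of increases was 1 without doxycycline hypoxia replicate 2 or 3 or doxycycline normoxia replicate 1, 3 or 4.

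NF-κB targets had 5 of 54 higher and 5 lower, 9.26% each, and a median of -0.01. Over all genes 1.02% were higher and 2.97% lower, and 1.89% and 5.37% of those above the median level. CXCL8, PTGS2, PTX3, IL6 and F3 rose, and CCL5, PLAU, TNFAIP2, IL1B and CD83 fell. PTGS2, the inducible cyclooxygenase, read 4.55, 4.58, 4.67 and 4.65 in normoxia and 5.39, 5.34, 5.27 and 5.25 in hypoxia (1.62-fold, adjusted p = 1.02e-05, limma). IL6 rose 1.40-fold (7.72, 7.75, 7.62 and 7.57 to 8.10, 8.15, 8.09 and 8.27, 0.00448), and PLAU, the urokinase gene, fell 1.44-fold (6.49, 6.65, 6.58 and 6.49 to 5.93, 5.97, 6.07 and 6.15, 0.00196). These groups did not overlap. F3, tissue factor, rose 1.34-fold. PTX3 and CD83 were named after their values were seen. Each count was 3 without doxycycline hypoxia replicate 1, 2 or 3 or doxycycline normoxia replicate 1, 2 or 4, and the count of lower members was also 3 without vehicle normoxia replicate 4 and 9 without vehicle hypoxia replicate 4. NFKBIA, the inhibitor that NF-κB itself induces, read 13.20, 13.14, 13.02 and 13.01 against 12.65, 12.98, 12.89 and 13.29 (-0.14 ± 0.17), with groups overlapping. Of 29 immediate early genes 3 rose (KLF6 1.69-fold, ATF3 and CCN1) and 0 fell.

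Interferon-stimulated genes had 2 of 36 lower (5.56%) and 0 higher, at a median of -0.25. That share is near the 5.37% lower among genes above the median level. The list's mean level was 9.57, 9.59, 9.80 and 9.49 in normoxia and 9.98, 9.30, 9.54 and 8.95 in hypoxia. The groups overlapped, with hypoxia replicate 1 the highest of all 8 arrays and replicate 4 the lowest. USP18 and ISG15 were the called members. ISG15 was at -0.27 ± 0.07 (adjusted p = 0.0391, limma) on a level below the median of all genes, and its groups overlapped. No member passed without doxycycline hypoxia replicate 2, 3 or 4 or doxycycline normoxia replicate 1 or 2, and 1 passed without doxycycline normoxia replicate 3, vehicle hypoxia replicate 1 or vehicle normoxia replicate 3.

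In the cell cycle, 0 of 50 replication genes rose and 1 fell (RPA1, 1.41-fold), and 1 of 61 mitosis genes rose (KNSTRN, a spindle protein, 1.32-fold). The calls of RPA1 and KNSTRN were lost in 6 and 12 of 16 fits without 1 array, which left the lists with 0 calls in those fits. The mitosis list had a median of 0.24 and 49 of 61 members above 0, but its mean level overlapped between groups (8.25 to 8.64 in normoxia, 8.54 to 9.0 in hypoxia). MKI67, the proliferation marker, read 11.05, 10.70, 11.14 and 11.01 against 11.20, 11.85, 11.22 and 11.25 (0.40 ± 0.22, adjusted p = 0.417, limma). Of 26 cell cycle inhibitors and p53 targets 4 fell and 0 rose. TP53I3, a quinone oxidoreductase, fell 1.81-fold (8.38, 8.51, 8.33 and 8.33 to 7.41, 7.47, 7.66 and 7.60, adjusted p = 2.09e-05), and the repair factor XPC, the CDK inhibitor CDKN1A and the stress protein SESN1 fell by 1.38-, 1.35- and 1.33-fold. Their count was 1 without doxycycline normoxia replicate 2, and 2 without doxycycline hypoxia replicate 2 or 3, without doxycycline normoxia replicate 1 or 3 or with the arrays centred on their medians. Of 28 measured apoptosis genes 1 rose (3.57%) and 2 fell (7.14%), with a median of -0.02. Among genes above the median level 1.89% rose and 5.37% fell. BCL2, which blocks apoptosis, rose 1.33-fold and the initiator caspases CASP10 and CASP8 fell by 1.41- and 1.27-fold. The call of BCL2 held in 6 of 16 fits without 1 array. CASP10 lost its call with the methods' t-test and CASP8 with the arrays centred on their medians.

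Of 26 NRF2 targets 4 fell and 0 rose. These were PGD, of the pentose phosphate pathway (1.25-fold), and the aldo-keto reductases AKR1C3 (1.44-fold), AKR1C2 (1.35-fold) and AKR1C1 (1.27-fold), close paralogs whose probes may read each other. AKR1C3 read 13.27, 13.30, 13.12 and 13.31 in normoxia and 12.70, 12.71, 12.73 and 12.77 in hypoxia (adjusted p = 0.00122, limma). Its groups were well apart. The count was 2 without doxycycline hypoxia replicate 2 or 3 or doxycycline normoxia replicate 2 or 4, and 8 without vehicle hypoxia replicate 4. In the unfolded protein response 1 of 30 rose (HERPUD1, of ER-associated degradation, 1.35-fold) and 1 fell (ATF6, 1.29-fold). The oxygen-dependent demethylases had 1 call of 24, KDM4D (-0.28 ± 0.05) below the median level. Matrix genes had 3 of 51 higher, ITGB3 (1.27-fold), CCN1 and COL8A1, sterol synthesis 1 of 23, INSIG1 (1.25-fold), and collagen hydroxylation and crosslinking 1 of 21 higher, LOX, and 1 lower, FKBP10 (1.33-fold). The calls of ITGB3, CCN1, COL8A1, INSIG1 and ATF6 held in 7, 5, 6, 4 and 6 of 16 fits without 1 array.

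Among 36 amino acid transporters, a family chosen after values were seen, 3 rose and 2 fell. SLC38A2, SLC7A6 and SLC7A1 rose, the first 2 of them among the largest increases already given. SLC43A2, a facilitative carrier of large neutral amino acids, read 6.57, 6.64, 6.72 and 6.62 in normoxia and 5.87, 5.82, 5.99 and 6.09 in hypoxia (1.62-fold lower, adjusted p = 0.000218, limma), and SLC7A8, another neutral amino acid carrier, fell 1.44-fold (0.00478). The groups were apart for both.

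The same contrast in vehicle cells asks whether the response differed with doxycycline, which switched on the hairpins. Effects of the hairpins and of doxycycline itself cannot be told apart here. There 506 genes rose (2.26%) and 1043 fell (4.65%), and the median difference over all genes was -0.05. Which treatment had more calls depended on the fit. With only the 8 arrays of each contrast, 323 rose and 790 fell with doxycycline, and 31 and 89 with vehicle. With the methods' t-test, adjusted, the counts were 246 and 552 with doxycycline, and 2 and 9 with vehicle. Of the 228 genes higher with doxycycline 152 were also called higher with vehicle (66.7% of the first list, 30.0% of the second), and of the 665 lower genes 434 were called lower (65.3% and 41.6%). None of the 228 and 1 of the 665 was called in the opposite direction. The difference between the responses, tested as an interaction, passed for 0 genes (limma, smallest adjusted p = 0.643). At an unadjusted p under 0.05 there were 1026 genes, 4.58% of those tested. With only the 8 arrays compared and with the methods' t-test the interaction was not tested. In the other alternative fits none was called. A gene called with doxycycline and not with vehicle is therefore not shown to respond differently.

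**Figure D4:**
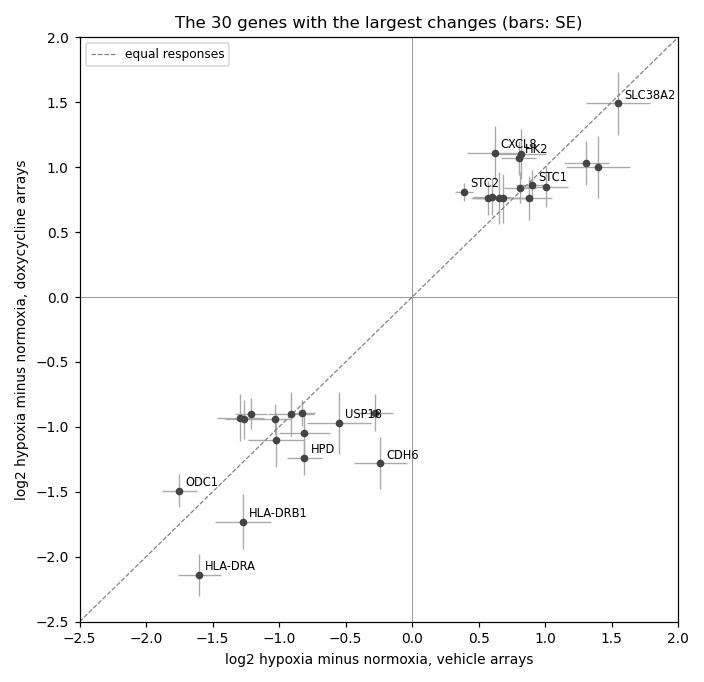
Points are the 30 genes with the largest changes, plotted by their hypoxia minus normoxia difference in vehicle cells (horizontal) and in doxycycline cells (vertical), both on the log2 scale with standard errors as bars; the dashed line marks equal responses. All 30 lie in the quadrants of equal sign, and CDH6 (-0.24 with vehicle, -1.28 with doxycycline) lies farthest below the line.

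The genes that led the response are given with the interval of the difference between treatments. SLC38A2 rose by 1.55 with vehicle and 1.49 with doxycycline, and the 95% confidence interval of the interaction ran from -0.79 to 0.67. STC1 rose by 0.90 and 0.86 (interval -0.40 to 0.31), although its levels were far apart: 10.05 in vehicle normoxia and 12.45 in doxycycline normoxia. ODC1 fell by 1.75 and 1.49 (-0.12 to 0.64). HLA-DRA read 6.92, 6.81, 7.15 and 6.82 in vehicle normoxia and 4.97, 5.74, 5.14 and 5.47 in vehicle hypoxia. It thus started 0.93 higher with doxycycline and fell by 2.14 there against 1.60 (interaction -0.55 ± 0.22, unadjusted p = 0.0261, adjusted p = 0.956, limma).

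Genes with small unadjusted p for the interaction are given as values, since none passed. CDH6 was at 10.21, 10.58, 10.66 and 10.54 in vehicle normoxia and at 10.08, 10.15, 9.91 and 10.89 in vehicle hypoxia. Its doxycycline normoxia arrays were above all others, and the interaction was -1.04 ± 0.28 (unadjusted p = 0.00203, adjusted p = 0.956, limma). STC2 was higher by 0.39 in hypoxia with vehicle and by 0.81 with doxycycline (interaction 0.42 ± 0.09, unadjusted p = 0.00048), and PTGS2 by 0.36 and 0.70 (0.34 ± 0.07, 0.00031). DDIT3 was at -0.06 with vehicle and 0.46 with doxycycline (0.52 ± 0.12, 0.000588). Its doxycycline normoxia level, 7.30, was below the 7.59 of vehicle normoxia, so that doxycycline hypoxia, at 7.76, lay 0.17 above vehicle normoxia. SLC7A1 was at -0.01 with vehicle and 0.52 with doxycycline (0.53 ± 0.16, 0.00483), with doxycycline normoxia at 9.60, doxycycline hypoxia at 10.12 and vehicle normoxia at 10.48. The smallest p belonged to FABP5P3, a pseudogene of a fatty acid binding protein (interaction -0.53 ± 0.09, 4.11e-05), followed by RARRES1 (-0.56 ± 0.10, 5.74e-05) and the carbonic anhydrase gene CA2 (-0.44 ± 0.08, 0.000105).

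At the level of lists, an unadjusted interaction p under 0.05 was found for 9 of 40 members of the ATF4 list, 9 of 56 of the HIF list and 5 of 36 of the interferon list, against 4.58% of all genes. Those were the largest shares among the 31 lists, and the ATF4 and HIF lists share STC2 and VLDLR. Other lists had 4 of 37 (triglyceride), 4 of 73 (mitochondrial ribosome), 3 of 54 (NF-κB), 1 of 64 (respiratory chain) and 0 of 33 (ceramide). The ATF4 list had a median of 0.20 with doxycycline and -0.00 with vehicle, and 4 higher and 5 lower calls with vehicle. The HIF list had medians of 0.19 and 0.11, with 8 higher and 4 lower with vehicle. The interferon list was at -0.25 with doxycycline and 0.20 with vehicle, where 0 members passed, and its levels varied between arrays of one group as described above. Mitochondrial ribosome genes had 11 calls with vehicle, all lower, and respiratory chain genes 11, all lower. No test of the lists themselves was made.

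**Figure D5:**
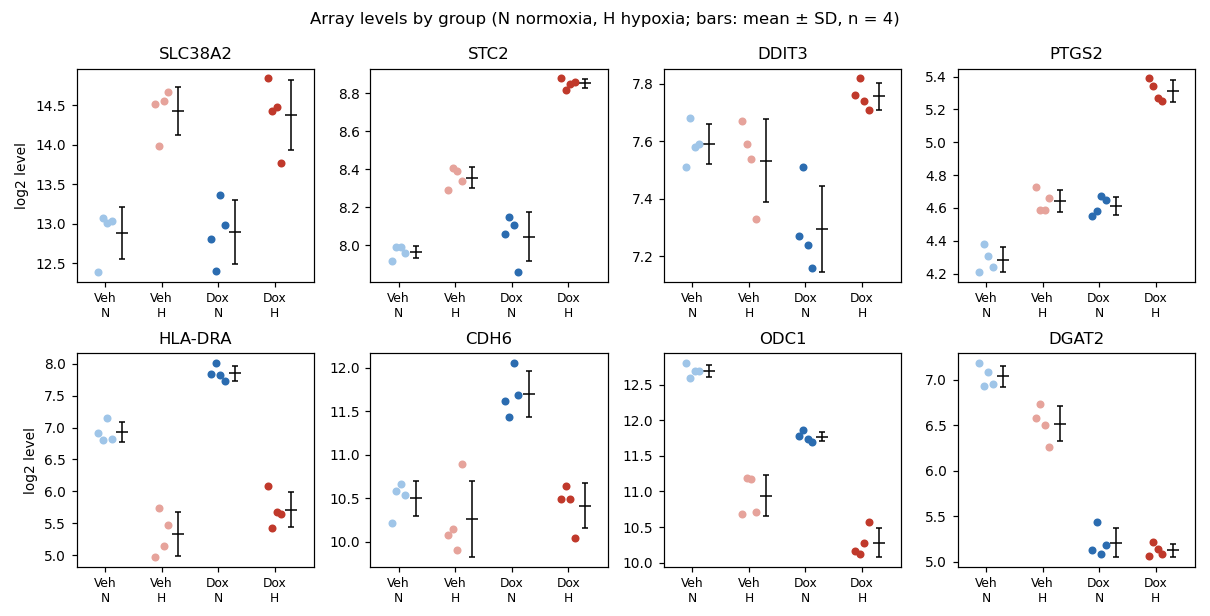
Log2 levels of 8 genes on all 16 arrays, with vehicle (Veh) and doxycycline (Dox) in normoxia (N) and hypoxia (H); points are arrays and bars show mean ± SD (n = 4). SLC38A2 rises in both treatments (by 1.55 and 1.49), CDH6 and DDIT3 separate by oxygen mainly among the doxycycline arrays, and DGAT2 stays at 5.06 to 5.44 on all doxycycline arrays.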

How the data were processed

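Total RNA (250 ng per array) was labelled and hybridised to whole-transcript human arrays. The authors deposited 1 table of log2 values for 16 arrays, and the submitters' processing notes name RMA and Transcriptome Analysis Console, without versions. Scan dates and the build were not given in the sources used here. Values in the deposited table lay between 1.71 and 19.85, with array medians of 3.91 to 4.11. Since 590 probe sets exceeded 16, the limit of a 16-bit scanner in log2 units, on every array, a step beyond RMA is possible, and folds apply to the scale as deposited. An array type is named in the methods for tumours only, and gene symbols came from the probe table of that type. Of 70523 probe sets 23781 had 1 gene symbol, 1543 several and 45199 none. Symbols were updated through RefSeq genes (21497 matched by identifier, 2280 by symbol or synonym, 4 kept), and 528 genes had more than 1 probe set, of which the brightest was used. A gene with no such probe set has no value here.

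A limma model (version 3.58.1, R 4.3.3) with 4 group means and an intensity trend was fitted to all 16 arrays, with two-sided tests and Benjamini-Hochberg adjustment over 22411 genes. The fit was tested on simulated data. The contrast of interest, its counterpart in vehicle cells and their interaction were tested, and DGAT levels by exact permutation. Named were the 15 largest increases and decreases among called genes with non-overlapping arrays and a brighter group above the median level, up to 4 members per direction of each of 31 lists, the 6 smallest interaction p in each direction, and DGAT1, DGAT2, SCD, PLIN2, HILPDA, NFKBIA, VEGFA, EPAS1, TXNIP and MKI67. Of these a selection is printed. The comparison, lists, rule and alternatives were chosen with earlier results of these data known, and the lists share genes.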

Additional observations from a re-analysis of the deposited data

Results flagged for a closer look

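For 142 named genes both doxycycline groups were examined, 284 groups in total. In 11 of these groups 1 array lay far from the other 3. Chance alone gives about 1 in 20 groups, so 11 of 284 is no excess. No cause was tested. In doxycycline hypoxia, replicate 4 stood apart for IL1B (4.76 against 4.57 to 4.58), SPTLC2 (10.77 against 10.95 to 10.98), VIPAS39 (9.28 against 9.06 to 9.09) and XPC (7.52 against 7.62 to 7.63). Replicate 1 of the same group stood apart for ISG15 (4.44 against 4.15 to 4.19), RNU6-49P (5.69 against 5.18 to 5.21) and, by a small step, AGPAT4 (8.18 against 8.16), and replicate 2 for MKI67 (11.85 against 11.20 to 11.25). In doxycycline normoxia, replicate 2 stood apart for HLA-DMA (8.12 against 7.85 to 7.87) and WARS1 (12.42 against 12.34 to 12.35), and replicate 3 for MAP2K6 (8.85 against 8.72 to 8.73).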

How the results depend on the processing

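Alternatives were run for the counts of called genes, for the counts of called members of the 31 lists and for the named genes, and no named gene reversed its direction in them. With the methods' t-test 29 named genes lost their call with doxycycline, 2 gained one and 102 were unchanged. List medians, counts of the MHC class II, polyamine and transporter families, promoter motifs and the overlap with vehicle cells were not rerun. With doxycycline the counts of higher and lower genes (228 and 665) became 1190 and 2176 with array weights, 429 and 1110 without vehicle normoxia replicate 1 and vehicle hypoxia replicate 4, 733 and 1554 without replicate 4 of both hypoxia groups, and 0 and 2 when a change of at least 1.5-fold was tested. Leaving out 1 array gave 98 to 359 higher and 308 to 1036 lower genes, with 98 higher without doxycycline hypoxia replicate 3, 308 lower without doxycycline normoxia replicate 2, and the largest counts without vehicle hypoxia replicate 4. With vehicle the counts (506 and 1043) became 1748 and 2862 with array weights, 254 and 489 without the first pair, 0 and 1 at 1.5-fold, 31 and 89 with only the 8 arrays compared, 2 and 9 with the methods' t-test, adjusted, and 581 lower with arrays centred on medians, against 220 to 572 and 538 to 1293 without 1 array. The cause was not tested. The interaction had 0 calls in every fit in which it was tested. Decreases made up 61.0% of the doxycycline calls after another quantile normalization and 71.2% after centring, against 74.5%.

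With the replicate number as a block 120 genes were higher and 359 lower with doxycycline, and 266 and 587 with vehicle. The numbers do not show pairing: deviations of same-numbered doxycycline arrays correlated at -0.37, -0.54, -0.08 and -0.19.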
